A study of Homo sapiens with 15 samples.

Results

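Open chromatin after 48 h of the WNT secretion inhibitor Lgk974 was compared with that after 24 h: 3 ATAC-seq libraries from HPAF-II cells kept in 1 µM Lgk974 for 48 h were set against 4 libraries from cells kept in it for 24 h. The 7 libraries were chosen by their labels alone, by inhibitor and time, out of 15 libraries in the series. The other 8 libraries came from cells given the solvent DMSO, 4 for 24 h and 4 for 48 h, and serve below as the background for time in culture.

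HPAF-II is a human pancreatic adenocarcinoma cell line that depends on WNT ligands it secretes itself, because RNF43, a ligase that removes WNT receptors from the cell surface, is defective in it. Lgk974 inhibits porcupine, the enzyme (gene PORCN) that attaches a lipid to WNT proteins, and without that lipid WLS cannot carry them out of the cell. When no WNT reaches its receptors, β-catenin (CTNNB1) is degraded and TCF/LEF factors such as TCF7L2 lose their partner at target genes, among them AXIN2, LGR5, NKD1, NOTUM, RNF43 and ZNRF3. ATAC-seq uses a transposase to cut and tag open chromatin, and a peak marks a stretch where cuts pile up, usually a promoter or an enhancer.

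Every library in both groups shared the cell line, the inhibitor and its dose, so time was the labelled difference. HPAF-II is a single line, and nothing in the labels says that replicates came from separate cultures. The p-values below therefore measure the spread between these libraries, which may be technical. The epithelial identity of the label was matched by the peaks: the ends of all 9 epithelial marker genes (KRT7, KRT8, KRT18, KRT19, EPCAM, CDH1, MUC1, CLDN4 and ELF3) carried a peak in all 7 Lgk974 libraries. Over all protein-coding genes, 54.7% had an end called in all 7 libraries. Markers of other cell types were called in part. Of 4 endothelial markers none was called in all 7 libraries, and PECAM1, VWF and KDR were called in none. Of 6 fibroblast markers, COL1A1 was called in all 7, COL1A2 in 5, PDGFRB in 4, and COL3A1, LUM and DCN in none. Of 6 immune markers, CD3E and CD14 were called in all 7, CD3D in 4, PTPRC in 1, and the B cell gene MS4A1 in none. Of 4 neural markers, SYP was called in all 7, MAP2 in 6, RBFOX3 in 4 and GFAP in none. The number called per library ran from 1 to 3 for the fibroblast and neural markers, 2 to 3 for the immune and 0 to 1 for the endothelial ones. Their part in the results was not tested. A gene end means here a peak within 1 kb of either end of a protein-coding gene in RefSeq, since the gene table gave no strand.

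At 24 h the Lgk974 libraries held 95210, 98930, 53610 and 98304 peaks, and at 48 h 102869, 122834 and 57708. The third replicate of each time was much shorter than its partners, and the groups overlapped. The means were 86514 ± 21996 (SD, n = 4) at 24 h and 94470 ± 33365 (SD, n = 3) at 48 h, a difference of 7957 peaks (two-sided exact permutation test over all 35 assignments of the labels, p = 0.743). The authors' lists give no read counts, so depth is unknown, and whether the short lists come from shallower sequencing was not tested. A region absent from a short list may be open below that library's calling threshold. For this reason many counts below are given with all peaks and also with what is called equal lists from here on. These hold the 53610 most significant peaks of every library, the length of the shortest Lgk974 list. Other counts, such as that of separated regions in DMSO, are given with all peaks alone.

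**Figure D1:**
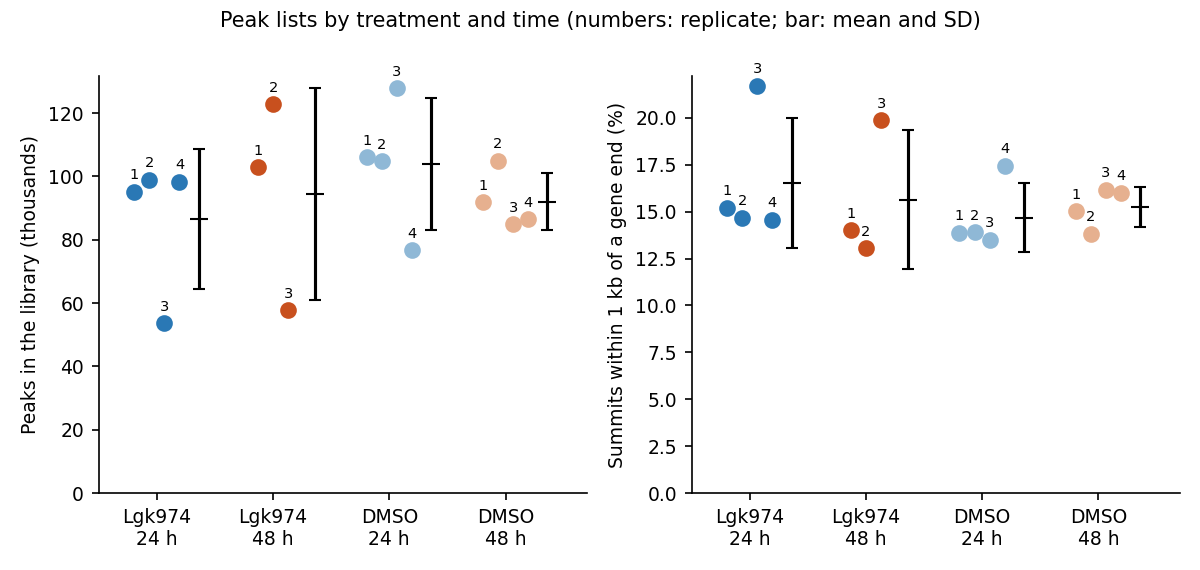
Left, the number of peaks per library in units of 1000, and right, the percentage of peak summits within 1 kb of a gene end, for each library of the 4 groups (points, numbered by replicate; bars, mean and SD). Replicate 3 of Lgk974 at 24 h (53610 peaks) and at 48 h (57708 peaks) held the fewest peaks and the highest shares at gene ends, 21.7% at 24 h.

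The genomic distribution of the peaks did not separate the times. Peak summits at gene ends made up 16.5% ± 3.46 (SD, n = 4) of the list at 24 h and 15.6% ± 3.69 (SD, n = 3) at 48 h, which differed by less than the spread between replicates (exact permutation p = 0.629). Summits inside genes made up 41.8% and 42.6% (exact permutation p = 0.543), and summits between genes 41.6% and 41.7% (exact permutation p = 0.886). The median peak width was 431 bp at 24 h and 418 bp at 48 h (exact permutation p = 0.571), and the peaks covered 44.5 Mb and 47.3 Mb (exact permutation p = 0.686). The same change over time was measured in DMSO, and none of the 6 differences between the Lgk974 and DMSO changes passed an exact permutation test (raw p from 0.398 to 0.841, smallest Benjamini-Hochberg adjusted p = 0.753).

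Merging the 7 lists gave 151578 regions. Of these, 40815 (26.9%) were called in all 7 libraries and 43039 (28.4%) in 1 library alone. Regions shared by more libraries were wider, from a median of 247 bp in 1 library to 801 bp in all 7, and 25.5% of the regions found in all 7 lay at gene ends against 6.22% of those found in 1. Most regions called in every library of one time were also called in every library of the other. Of the 49052 regions called in all 4 libraries at 24 h, 83.2% were called in all 3 at 48 h and 0.0428% in none. Of the 48707 called in all 3 libraries at 48 h, 83.8% were called in all 4 at 24 h and 0.292% in none.

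The share of regions that a pair of libraries had in common, the Jaccard index (shared regions over regions in either), was not higher within a time than between times. Its mean was 0.629 within 24 h, 0.517 within 48 h and 0.598 between the times. The mean within times minus the mean between times was -0.00636 (one-sided exact permutation test, p = 0.4). With equal lists the means were 0.771, 0.706 and 0.734, and the same quantity was 0.0154 (one-sided exact permutation p = 0.171). The libraries that stood apart were the third replicates. Their mean index with the other 6 libraries was 0.518 at 24 h and 0.492 at 48 h. That of the other 5 libraries was 0.582 to 0.655. With all peaks the third replicates resembled each other (0.634) more than they resembled any library of their own time. With equal lists their index with each other was 0.652, the lowest of any pair.

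**Figure D2:**
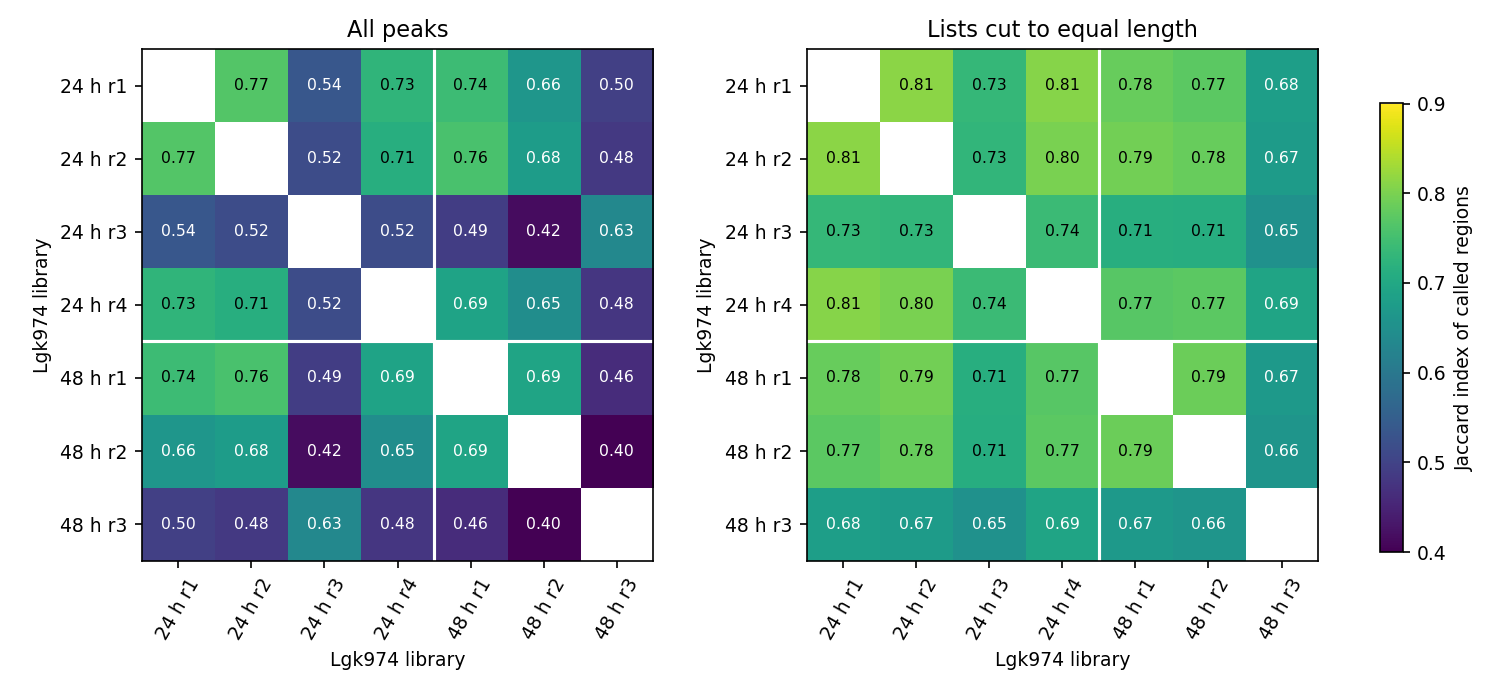
Jaccard index of called regions for each pair of the 7 Lgk974 libraries, with all peaks (left) and with equal lists (right). White lines divide 24 h from 48 h, and the rows and columns of replicate 3 (r3) are the darkest in both panels (means with the other 6 libraries of 0.518 and 0.492, left).

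A region can reach the smallest p that 4 against 3 libraries allow, 0.0286, only if it is called in every library of one time and in none of the other, here called complete separation. With all peaks, 142 regions were called in all 3 libraries at 48 h and in none of the 4 at 24 h, which is 0.128% of the 110763 regions called in 1 to 6 libraries. The reverse held for 21 regions, 0.019% of the same total. Only regions called in as many libraries can separate. Of the 10171 regions called in 3 libraries, 1.40% separated at 48 h only. Of the 10141 called in 4, 0.207% separated at 24 h only. After Benjamini-Hochberg adjustment of the exact permutation test no region passed 0.05 (0.0% of the 110763; smallest adjusted p = 1), and 163 passed at an unadjusted p under 0.05. With equal lists, 177 regions were found at 48 h only (0.448% of 39515) and 210 at 24 h only (0.531%), and again none passed the adjustment (smallest adjusted p = 0.911). The excess at 48 h over 24 h seen with all peaks was thus not seen with equal lists.

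The separated regions were mostly different ones under the 2 ways of counting. Only 2 of the 142 regions, and none of the 21, were also completely separated with equal lists. Of the 177 regions found at 48 h only with equal lists, 139 were called by replicates 1, 2 and 4 at 24 h when all peaks were used. None can have been called by replicate 3 there, whose equal list is its whole list. Of the 210 found at 24 h only, 207 were called with all peaks by replicates 1 and 2 at 48 h, 12 of them by replicate 3 as well.

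Without replicate 3 of both times, 4081 regions were called in both remaining 48 h libraries and in none of the 3 remaining 24 h libraries (5.47% of 74672), and 408 showed the reverse (0.546%). With lists cut to 95210 peaks, the shortest of these 5, the counts were 1954 (3.38% of 57747) and 1060 (1.84%). In this design the smallest p is 0.1, so no region could pass an exact permutation test. The 48 h lists left in it, of 102869 and 122834 peaks, were both longer than all 3 at 24 h, and equal lists lowered the first count and raised the second. The counts also depended on which single library was left out. Without replicate 3 at 48 h alone, the number of regions found at 48 h only went from 142 to 4038, and without replicate 3 at 24 h alone those found at 24 h only went from 21 to 384. Leaving out any other library of the 7 gave between 216 and 374 regions at 48 h only and between 30 and 171 at 24 h only.

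**Figure D3:**
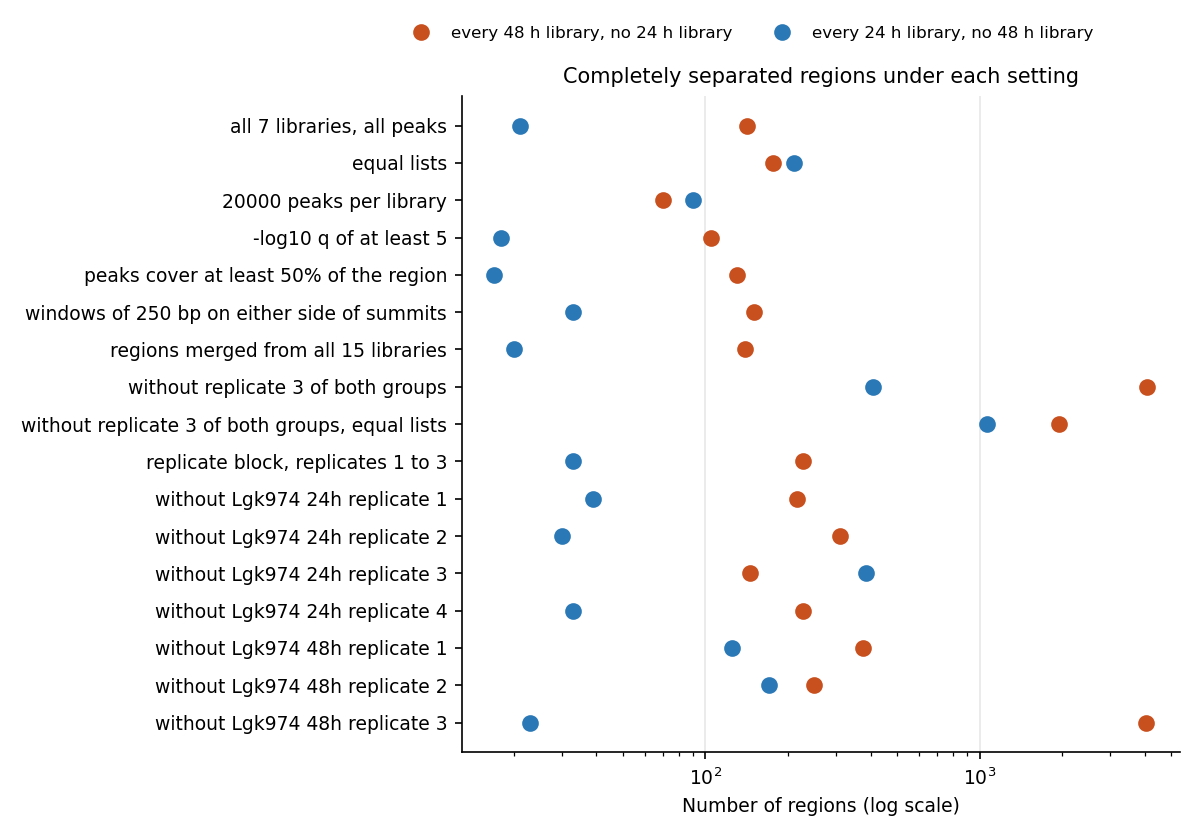
Number of completely separated regions (log axis) under each setting, in orange for regions called in every 48 h and no 24 h library and in blue for the reverse. With all peaks the counts are 142 and 21, and they reach 4081 and 408 without replicate 3 of both times.

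The background for time in culture was counted with all peaks on regions merged from the 8 DMSO lists. Complete separation at 48 h takes more libraries there than with Lgk974, so the shares are not directly comparable. In the 8 DMSO libraries, 4 against 4, complete separation was found for 102 regions at 48 h only (0.0693% of 147130) and 109 at 24 h only (0.0741%). The change over time in Lgk974 was then set against that in DMSO, region by region, by exchanging treatment labels within each time (2450 assignments). None of 116096 regions passed after Benjamini-Hochberg adjustment (0.0%; smallest adjusted p = 1). At an unadjusted p under 0.05, the difference in the share of libraries calling a region, 48 h minus 24 h, was higher with Lgk974 than with DMSO in 656 regions (0.565%) and lower in 129 (0.111%). With equal lists, a choice made after seeing the data, the counts were 241 (0.507% of 47530) and 388 (0.816%), and none passed the adjustment (0.0%; smallest adjusted p = 1).

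The regions found at 48 h only with Lgk974 were often called in more DMSO libraries at 48 h as well. Among the 142 regions, 58 (40.8%) were called in more DMSO libraries at 48 h than at 24 h and 26 (18.3%) in fewer. Over all 10171 regions called in 3 of the 7 Lgk974 libraries, the corresponding DMSO shares were 25.6% and 37.3%. These regions had low significance: in the least significant of the libraries calling it, the median region of the 142 stood at percentile 8.16 of that library's list, against 9.48 for all regions called in 3 libraries (percentiles rank −log10 q within a list, 100 being the most significant). Their median width was 422 bp against 383 bp, and 5.63% of them lay at gene ends against 7.10%. Each of the 21 regions found at 24 h only was called in at least 1 DMSO library, on average in 3.10 of 4 at 24 h and 2.86 of 4 at 48 h. Over the 10141 regions called in 4 Lgk974 libraries the means were 2.15 and 2.04. With equal lists the DMSO background leaned the same way: of the 177 regions found at 48 h only, 84 (47.5%) were in more DMSO lists at 48 h and 15 (8.47%) in fewer, against 30.1% and 33.3% of the 4399 regions called in 3 Lgk974 equal lists. Of the 210 regions found at 24 h only, 84 (40.0%) were in more DMSO lists at 24 h and 60 (28.6%) in fewer, against 32.5% and 31.5% of the 4199 regions called in 4.

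The 2 regions that were separated both with all peaks and with equal lists were both at 48 h. One, chr4:95231669-95232204 (hg38), lies inside UNC5C, a netrin receptor, and was called at percentiles 62.7, 66.4 and 37.7 in the 3 libraries at 48 h. It was also called in 2 of 4 DMSO libraries at 24 h and 4 of 4 at 48 h, and the difference of its change from that in DMSO did not pass (exact permutation p = 0.429). The other, chr10:90244993-90245544, lies 470059 bp from KIF20B, a mitotic kinesin, and was called at percentiles 61.3, 69.7 and 10.6. It was called in 3 and 4 of the DMSO libraries (exact permutation p = 0.143 for the difference of the changes).

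The named regions follow the order of the percentile in the weakest library that called them. A region 548171 bp from JAG1, a Notch ligand, had percentiles 44.4, 69.7 and 38.3. A region inside DAPK2, a calmodulin-regulated kinase, had 37.1, 48.5 and 31.9, and was called in 0 and 3 DMSO libraries. A region inside RARG, a retinoic acid receptor, had 23.4, 37.1 and 36.5, and was called in 1 and 0. All of these were absent from the 4 lists at 24 h. A region inside MARK2, a kinase of cell polarity, and one 69055 bp from SESN3, a stress-induced sestrin, were called in no DMSO library at either time, and the difference of each change from that in DMSO had an unadjusted exact permutation p of 0.0286 (adjusted p = 1). For separated regions, the Lgk974 part of this difference is fixed by how they were chosen. Where no DMSO library called the region, so is its p. Other regions of the first 15 were nearest to ZNF16, ACTRT3, RPS24, IFNG, CXCL17, CYP27C1 and EYA1, between 0 and 498212 bp away.

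At 24 h only, the first region in the same order was chr11:2924385-2924878, at an end of SLC67A1 and 38610 bp from CDKN1C, a cyclin-dependent kinase inhibitor. Its percentiles were 43.2, 25.9, 22.3 and 31.6 in the 4 libraries at 24 h, and DMSO called it in 4 and 3 libraries. Another region near CDKN1C, chr11:2844113-2844429, was also called in all 4 libraries at 24 h and none at 48 h, with 4 and 3 DMSO calls. In its weakest library it stood at percentile 0.604, at the bottom of that list. With equal lists each of the 2 regions near CDKN1C was called in 1 of 4 libraries at 24 h. A region inside PFKM, the muscle form of phosphofructokinase, had percentiles 19.6, 21.3, 23.2 and 47.2, and one inside BCAR3, an adaptor of integrin signalling, 29.6, 17.6, 34.3 and 37.5. No region of this set stood above percentile 22.3 in its weakest library. A region at the ends of NAA10, an N-terminal acetyltransferase, and RENBP was called in all 8 DMSO libraries, as was one 200294 bp from NLRP1, an inflammasome sensor, each with an unadjusted exact permutation p of 0.0286 for the difference from DMSO (adjusted p = 1). With calls in all 8 DMSO libraries, that p too is fixed by the choice of the regions. A region at an end of LIF, a cytokine of the interleukin-6 family, was called at percentiles 22.8, 14.3, 2.61 and 0.481. These reach close to the bottom of the lists.

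**Figure D4:**
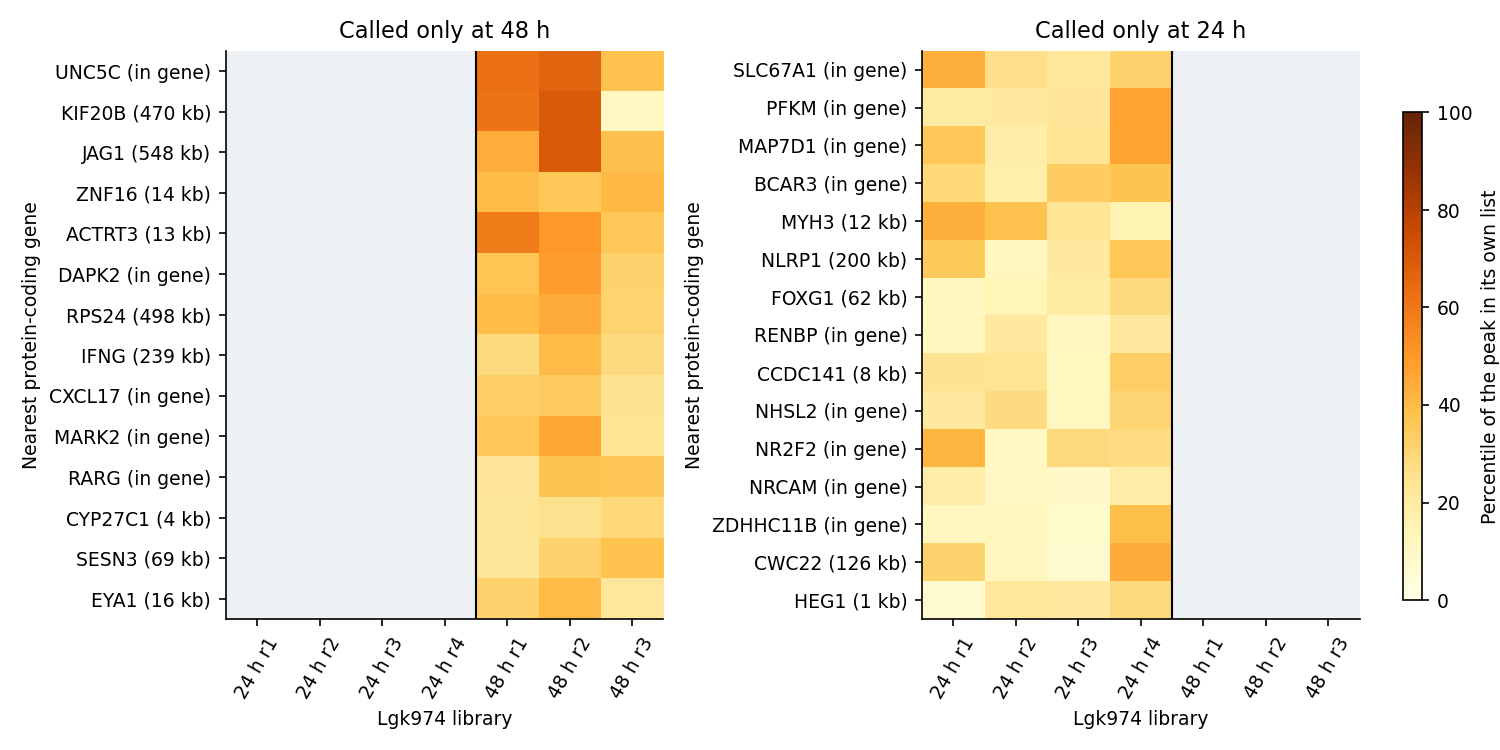
Percentile of the overlapping peak within its own list (colour, 0 to 100) for regions among the first 15 called only at 48 h (left) and only at 24 h (right), in each Lgk974 library. Rows give the nearest protein-coding gene and the distance to it, grey marks no peak, and the highest values, near 70, belong to 48 h replicate 2 at KIF20B and JAG1.

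Promoter sequence was available for those separated regions that reach into the window of 250 bases before a RefSeq gene start. With all peaks 2 genes of the table had such a region. Both are shown 5′ to 3′ on the strand of the gene (RefSeq, GRCh38.p14), with the bases inside the separated region in capitals, because they show how far each region reaches toward the start. The region at ZNF853, a zinc finger gene, was found at 48 h only and covers 35 bases of chr7:6615360-6615609 (plus strand). The region at NR2F2, which encodes the nuclear receptor COUP-TFII, was found at 24 h only and covers 59 bases of chr15:96333515-96333764 (plus strand).
ZNF853: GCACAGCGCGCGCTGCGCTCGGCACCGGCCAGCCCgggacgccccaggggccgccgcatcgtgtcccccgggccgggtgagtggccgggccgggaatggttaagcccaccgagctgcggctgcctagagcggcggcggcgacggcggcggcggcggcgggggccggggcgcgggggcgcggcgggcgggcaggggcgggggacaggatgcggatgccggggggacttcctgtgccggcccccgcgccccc
NR2F2: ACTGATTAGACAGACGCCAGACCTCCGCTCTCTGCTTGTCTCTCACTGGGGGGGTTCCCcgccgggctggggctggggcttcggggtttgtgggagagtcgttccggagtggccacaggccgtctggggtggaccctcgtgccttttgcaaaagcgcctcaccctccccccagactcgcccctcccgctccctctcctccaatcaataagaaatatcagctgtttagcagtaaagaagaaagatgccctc
Both regions cover the part of the window farthest from the start and leave the bases next to it outside. The ZNF853 region had percentiles 6.06, 33.8 and 32.5 at 48 h and DMSO calls in 0 and 1 libraries. The NR2F2 region had percentiles 41.5, 9.88, 29.2 and 27.7 at 24 h and DMSO calls in 1 and 3, and the difference of its change from that in DMSO had an unadjusted exact permutation p of 0.0102 (adjusted p = 1).

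With equal lists, some separated regions covered the whole window before a gene start, and 5 such windows are shown because they let the bases under a separated region be read in full. They are named here after their values were seen. The windows were searched for 11 short motifs on both strands, and matches are in capitals in the lines below. LOC105373682 (chr2:150166330-150166579, minus strand) lies in 1 of the 2 separated regions whose nearest protein-coding gene is RND3, an atypical small GTPase. MSRB3-AS1 (chr12:65642373-65642622, minus strand) is antisense to MSRB3, a methionine sulfoxide reductase. Both were found at 48 h only. LOXL3, a lysyl oxidase (chr2:74553943-74554192, minus strand), DOK1, a docking protein of tyrosine kinases (chr2:74554470-74554719, plus strand), and MYD88, the adaptor of Toll-like receptors (chr3:38138411-38138660, plus strand), were found at 24 h only, the first 2 in 1 shared region.
LOC105373682: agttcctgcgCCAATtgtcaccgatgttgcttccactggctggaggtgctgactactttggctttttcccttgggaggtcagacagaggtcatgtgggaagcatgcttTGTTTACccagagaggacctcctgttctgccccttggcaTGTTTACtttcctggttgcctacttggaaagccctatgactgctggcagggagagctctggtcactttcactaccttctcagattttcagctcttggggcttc
MSRB3-AS1: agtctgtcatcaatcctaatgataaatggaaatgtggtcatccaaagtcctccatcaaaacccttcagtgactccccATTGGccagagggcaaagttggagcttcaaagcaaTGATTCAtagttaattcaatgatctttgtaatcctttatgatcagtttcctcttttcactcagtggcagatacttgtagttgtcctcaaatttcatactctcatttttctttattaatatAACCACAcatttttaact
LOXL3: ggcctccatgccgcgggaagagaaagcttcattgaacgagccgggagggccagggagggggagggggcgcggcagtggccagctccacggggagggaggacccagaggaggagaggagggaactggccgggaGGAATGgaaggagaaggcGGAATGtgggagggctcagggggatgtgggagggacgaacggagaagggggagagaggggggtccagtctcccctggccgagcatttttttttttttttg
DOK1: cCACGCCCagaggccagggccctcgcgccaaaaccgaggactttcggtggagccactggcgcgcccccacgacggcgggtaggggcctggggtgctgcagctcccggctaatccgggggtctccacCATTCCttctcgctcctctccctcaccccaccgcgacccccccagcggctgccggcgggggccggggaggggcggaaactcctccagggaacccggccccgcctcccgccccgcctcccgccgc
MYD88: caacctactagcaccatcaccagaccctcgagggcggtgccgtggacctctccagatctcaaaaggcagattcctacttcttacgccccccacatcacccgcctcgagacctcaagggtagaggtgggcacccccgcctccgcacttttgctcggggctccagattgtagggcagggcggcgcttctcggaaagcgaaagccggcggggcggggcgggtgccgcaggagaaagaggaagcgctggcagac
The window of LOC105373682 matched the FOXA motif TGTTTAC at 2 places and the CCAAT box once. MSRB3-AS1 matched the AP-1 motif TGANTCA, the RUNX motif TGTGGTT and the CCAAT box once each. LOXL3 matched the TEAD motif GGAATG at 2 places. DOK1 matched it once and the KLF/SP motif GGGCGTG once. MYD88 held none of the 11 motifs, and the TCF/LEF motif CTTTGAT was in none of the 5 windows. Among 34675 distinct RefSeq windows of the same length, the FOXA motif was found in 2.98%, the AP-1 motif in 6.57%, the RUNX motif in 3.66%, the TEAD motif in 11.9%, the KLF/SP motif in 7.95%, the CCAAT box in 32.0% and the TCF/LEF motif in 2.27%. The other motifs searched were the ETS motif CCGGAAG (found in 8.50%), the GATA motif AGATAAG (found in 2.36%), the E-box CACGTG (found in 6.32%) and the TATA box, searched as TATAAA (found in 10.8%). A match is a run of letters and does not show a bound site.

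The region over the MYD88 start, chr3:38137952-38139116, stood at percentiles 50.2, 46.5, 48.4 and 51.8 at 24 h and at 44.8 and 54.1 in the first 2 libraries at 48 h, with no peak in replicate 3. The first 2 libraries at 48 h thus held the peak, but below their top 53610. The region over the DOK1 and LOXL3 starts followed the same course, at 45.6, 56.0, 15.1 and 50.6 against 44.4 and 50.5 and no peak. Percentiles are of each library's whole list, so those of lists of unlike length are not directly comparable. A place among the top 53610 peaks at the time named, and not at the other, is fixed by how these regions were chosen. The top region at 48 h with equal lists, chr12:52045456-52046305 inside NR4A1, an immediate-early nuclear receptor, stood at 65.4, 72.4 and 64.4 at 48 h and at 39.2, 34.7 and 43.9 in replicates 1, 2 and 4 at 24 h, with no peak in replicate 3. DMSO equal lists held it in 0 and 1 libraries (exact permutation p = 0.143 for the difference of the changes). The widest gap in rank among the first 15 regions at 48 h belonged to 1 of the 2 regions nearest RND3, chr2:150182251-150183034, at 77.9, 76.9 and 50.7 against 3.38 and 12.8 in replicates 2 and 4 at 24 h and no peak in replicates 1 and 3. DMSO equal lists held it in 2 and 4 libraries. The other region nearest RND3, which holds the start of LOC105373682, stood at 71.6, 63.5 and 47.1 against 29.4, 19.7 and 44.7 and no peak in replicate 3. The region at MSRB3-AS1 stood at 60.7, 61.1 and 42.1 against 10.2, 17.5 and 33.2 and no peak in replicate 3. A region inside PDE8B, a cyclic AMP phosphodiesterase, stood at 62.5, 67.5 and 57.9 at 48 h against 42.9, 13.6 and 30.5 and no peak in replicate 3, with no call in the DMSO equal lists of either time (unadjusted exact permutation p = 0.0286). Without DMSO calls, that p is fixed by the choice of the region. A region 20008 bp from CCL20, a chemokine, stood at 58.2, 63.6 and 51.6 against 36.4, 26.6 and 37.4. It was in the equal lists of all 8 DMSO libraries. At 24 h only, a region inside SLCO2A1, a prostaglandin transporter, stood at 51.8, 54.9, 63.3 and 56.5 against 46.6, 52.2 and 2.37, and one inside ITGA6, a laminin-binding integrin, at 47.0, 55.0, 61.5 and 53.5 against 43.4 and 55.6 and no peak.

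Peaks at gene ends were also compared gene by gene. Of 19974 protein-coding genes, 10927 had a peak at an end in all 7 libraries and 4828 in none. Among the 4219 genes in between, the share of libraries was higher at 48 h for 2113 and at 24 h for 2106. The equal lists gave 10388 genes called in all 7 libraries and 7015 in none. Of the 2571 in between, 1138 had a higher share at 48 h and 1433 at 24 h. The next counts are again with all peaks. The ends of 5 genes were called at 48 h only (0.119%): MYOG, a muscle transcription factor, ZNF853, BNIP3, a mitophagy receptor, LRFN1, a synaptic adhesion protein, and LIPE, the hormone-sensitive lipase. The end of 1 gene, HCN2, a pacemaker ion channel, was called at 24 h only (0.0237%). HCN2 had the same counts in DMSO, 4 of 4 libraries at 24 h and 0 of 4 at 48 h (exact permutation p = 1 for the difference of the changes). LRFN1 was called in 1 and 0 DMSO libraries, the difference of the changes having an unadjusted exact permutation p of 0.0143. The same test gave 0.0714 for MYOG and BNIP3, 0.214 for ZNF853 and 0.429 for LIPE. The Lgk974 part of each difference is fixed by how the genes were chosen. The region at the LRFN1 end, chr19:39307054-39307716, stood at percentile 0.483 in its weakest library and was in 0 equal lists of Lgk974. With equal lists, 2 genes were found at 48 h only (0.0778% of 2571), ATP13A3, a polyamine transporter, and TMEM117, and 7 at 24 h only (0.272%): NOTCH2NLC, ARHGEF38, PPP1R26, RAB20, MCF2L, CABYR and ARMCX4. NOTCH2NLC has near-identical copies elsewhere in the genome, so its peak is uncertain. None passed Benjamini-Hochberg adjustment of the exact permutation test (smallest adjusted p = 1 with all peaks and 0.938 with equal lists).

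The WNT pathway was read from named genes and from 3 lists. The porcupine gene PORCN, CTNNB1, TCF7L2, RNF43 and ZNRF3 had a peak at an end in all 4 libraries at 24 h and all 3 at 48 h. So did MYC and ID2, transcription regulators, and CCND1, a cyclin, all of them known WNT targets. AXIN2, a feedback inhibitor that scaffolds β-catenin destruction, had none in any of the 7 Lgk974 libraries at either time, but one in 3 of 4 DMSO libraries at 24 h and 4 of 4 at 48 h. LGR5, the R-spondin receptor, was called in 4 of 4 and 2 of 3, missing in replicate 3 at 48 h alone. WLS, the WNT carrier, was called in 3 of 4 and 2 of 3, missing in replicate 3 of both times. NKD1, a cytoplasmic inhibitor of the pathway, was called in 1 of 4 and 1 of 3, and NOTUM, a secreted enzyme that removes the lipid from WNT, in 1 of 4 and 2 of 3. By their ends, 7 of 15 called genes of the WNT feedback list, 16 of 22 of the list of ligands, secretion and receptors and 15 of 20 of the β-catenin complex were called in all 7 libraries, which is 46.7%, 72.7% and 75%. Among all 15146 protein-coding genes with a call at an end the share was 72.1%. The equal lists gave 6 of 11, 15 of 21 and 13 of 18 genes (54.5%, 71.4% and 72.2%), against 80.2% of 12959.

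Counting every region within 50 kb of the 18 WNT feedback genes but not at their ends, 94 were called in a higher share of libraries at 48 h and 61 at 24 h with all peaks (60.6% at 48 h, against 55.9% over all regions), and 27 and 31 with equal lists. For 28 genes of WNT ligands, secretion and receptors the counts were 152 and 102, and 50 and 52. For 23 genes of the β-catenin complex they were 140 and 100, and 43 and 43. The only separated region among these 3 lists with all peaks lay inside SFRP1, a secreted WNT antagonist (chr8:41281458-41281852), called in all 3 libraries at 48 h and in no other of the 15. It reached percentile 5.95 in its weakest library and an unadjusted exact permutation p of 0.0286 for the difference from DMSO. That p is fixed by the choice of the region, since no DMSO library called it. The largest difference for LGR5 was a region 7905 bp outside the gene, called in 4 of 4 and 1 of 3 libraries (exact permutation p = 0.143). For WNT7B, a WNT ligand, it was a region at the gene end, called in 3 of 4 and 0 of 3 while DMSO called it in 3 and 4 (unadjusted exact permutation p of 0.0469 for the difference from DMSO).

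On the same basis, 17 of 21 called genes of the list of pancreatic epithelial factors (81.0%), 9 of 14 of the gastric and intestinal list (64.3%) and 11 of 17 of the mucin and trefoil list (64.7%) were called at an end in all 7 libraries. GATA6, HNF4A, KLF4 and ELF3, transcription factors of this lineage, had their ends called in all 7 libraries, as did MUC1 and MUC5B (mucins), TFF1 and TFF2 (trefoil peptides), FOSL1 (an AP-1 subunit) and EGFR. MUC5AC, the gastric gel-forming mucin, was called in 0 of 4 libraries at 24 h and in replicates 1 and 2 at 48 h, against 3 of 4 and 1 of 4 in DMSO (exact permutation p = 0.143 for time in Lgk974). CDKN1A, a p53-responsive cell cycle inhibitor, was called in 1 of 4 and 3 of 3 (exact permutation p = 0.143), and DMSO went the same way, 1 of 4 and 4 of 4. TFF3 was called in 0 and 1 and RUNX1 in 2 and 2. The interferon-induced genes IFIT1 and IFIT3 were each called in 3 of 4 and 3 of 3, missing in replicate 3 at 24 h, and IFIT2 in 4 of 4 and 2 of 3, missing in replicate 3 at 48 h. None of these genes was completely separated by time.

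Over all 31 gene lists, holding 615 genes, no gene end was completely separated in either direction, with all peaks or with equal lists. Of these genes, 415 (67.5%) were called at an end in all 7 libraries, against 54.7% of all protein-coding genes, and 72 in none. All 23 genes of replication and mitosis and 21 of 22 of ribosome biogenesis were called in all 7. Among the 128 genes called in 1 to 6 libraries, 61 had a higher share at 48 h and 67 at 24 h. In equal lists, 392 (63.7%) were called at an end in all 7 libraries, against 52.0% of all protein-coding genes. Among the 95 called in 1 to 6, 43 had a higher share at 48 h and 52 at 24 h. Regions near list genes were separated at 48 h only in 7 cases and at 24 h only in 2, of 5458 with all peaks. These shares of 0.128% and 0.0366% stand beside 0.128% and 0.019% over all regions. With equal lists there were 9 and 4 of 2257 (0.399% and 0.177%, beside 0.448% and 0.531%). With all peaks they were those near SFRP1, GALNT5 and C1GALT1 (both enzymes of mucin O-glycosylation), BOP1 (ribosome biogenesis), TNFAIP2, OAS2 and IFNL1 at 48 h and the 2 near CDKN1C at 24 h. GALNT5 and C1GALT1 belong to 1 list, as do the 2 regions near CDKN1C, and each of the others is a single region in its list. The region named for TNFAIP2 lies at an end of LBHD2. That for OAS2 lies at an end of DTX1, a Notch regulator, and that for IFNL1 at an end of LRFN1. In their weakest libraries the 7 regions at 48 h stood at percentiles from 0.483 (IFNL1) to 15.3 (BOP1).

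The shares per list spread around the value for all regions. With all peaks, the share of near regions higher at 48 h ran from 48.5% to 65.4% over the 31 lists, with a median of 56.8%, against 55.9% of all regions. With equal lists it ran from 22.95% to 60.9% with a median of 50.0%. The lowest value, singled out after the values were seen, belonged to 18 genes of the unfolded-protein and stress response: 14 near regions were higher at 48 h and 47 at 24 h, against 49.9% and 50.1% over all regions. These 61 regions were in the equal lists of 59.0%, 50.8%, 39.3% and 54.1% of cases at 24 h and 27.9%, 29.5% and 37.7% at 48 h. The groups did not overlap, and the closest values were those of replicate 3 at each time. As 1 of 31 lists picked for its value, it carries no test. Over all 39379 regions with calls in 1 to 6 equal lists, counted here on the regions merged from all peaks, the shares were between 39.2% and 44.0% at 24 h and between 39.4% and 44.8% at 48 h. Without replicate 3 of both times, 6 of the 61 (9.84%) were higher at 48 h, 41 (67.2%) at 24 h and 14 (22.95%) equal, against 32.8%, 32.7% and 34.5% over all regions. With all peaks the list did not stand apart, 93 regions being higher at 48 h and 69 at 24 h (57.4%). No region of it was completely separated.

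Regions that differed between the treatments at 24 h were then followed to 48 h, in libraries that had no part in choosing them, a choice made after seeing the data for equal lists. The shares are given without a test. With equal lists, 430 regions were called in all 4 Lgk974 and no DMSO library at 24 h. At 48 h, the 3 Lgk974 libraries called 86.7%, 83.7% and 74.4% of them, and the 4 DMSO libraries 21.6%, 30.2%, 26.3% and 30.9%. Over all regions the 7 libraries called 56.2% to 58.6%. The treatments did not overlap, and 267 of the 430 regions were called in all 3 Lgk974 libraries at 48 h. A further 126 regions were called in all DMSO and no Lgk974 libraries at 24 h. At 48 h Lgk974 called 20.6%, 27.0% and 17.5% of these and DMSO 69.8%, 74.6%, 71.4% and 74.6%. With equal lists, regions called with 1 treatment alone at 24 h were thus called more often with that treatment at 48 h too, in every library.

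Read in the other direction, 721 regions were called in all 3 Lgk974 and no DMSO library at 48 h. At 24 h, Lgk974 called 63.2%, 61.6%, 52.0% and 70.3% of them and DMSO 12.2%, 10.96%, 16.8% and 13.9%, and 60 were called in no Lgk974 library at 24 h. Over all regions these 8 libraries called 56.1% to 58.5%. For the 998 regions called in all DMSO and no Lgk974 libraries at 48 h, Lgk974 at 24 h called 23.9%, 21.3%, 26.6% and 27.0%. DMSO at 24 h called 69.8%, 71.6% and 64.2% in replicates 1, 2 and 4 but 24.2% in replicate 3, which lay within the Lgk974 range for these regions. With all peaks the treatments did not overlap either for the 71 regions of Lgk974 at 24 h, of which the 48 h libraries called 67, 69 and 35 with Lgk974 against 7, 32, 6 and 13 with DMSO. They overlapped for the 194 regions of DMSO at 24 h, where Lgk974 called 69, 111 and 3 and DMSO 92, 146, 104 and 110. Replicate 2 of Lgk974 lay above 3 of the DMSO libraries. It called 57.2% of these 194 regions and 53.1% of all regions. Of all regions, Lgk974 replicates 1 and 3 at 48 h called 44.7% and 24.5%, and the DMSO libraries 36.3% to 45.4%. The sets chosen at 48 h overlapped as well. Of the 396 regions of Lgk974 at 48 h, Lgk974 at 24 h called 234, 265, 45 and 255. DMSO at 24 h called 91, 74, 76 and 25 of them. Of the 650 regions of DMSO at 48 h, Lgk974 at 24 h called 140, 158, 19 and 181. DMSO at 24 h called 554, 535, 129 and 304 of them. Of all regions, the 24 h libraries called 40.8%, 42.5%, 22.8% and 42.4% with Lgk974 and 45.8%, 45.5%, 54.6% and 32.8% with DMSO.

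**Figure D5:**
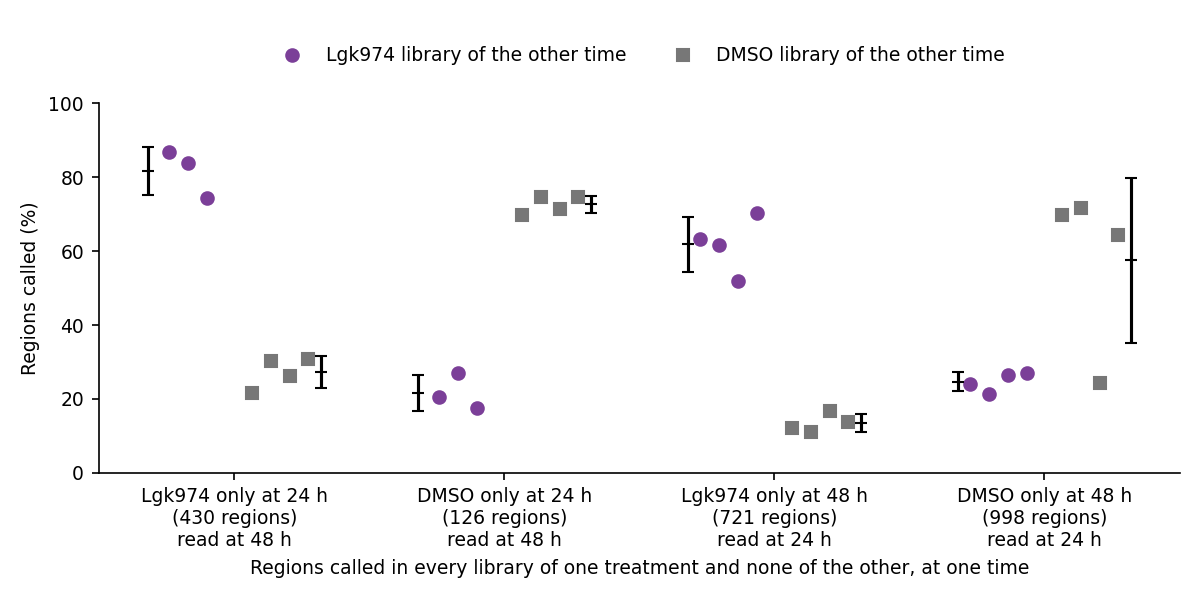
Percentage of regions called in each library of the other time (points; bars, mean and SD), for regions whose equal-list calls at 24 h or at 48 h were complete in 1 treatment and absent from the other. Lgk974 and DMSO libraries do not overlap in the first 3 sets, and in the last set DMSO 24 h replicate 3 (24.2%) lies among the Lgk974 libraries.

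Regions of these sets lay near several of the genes above, and each is given with the lists it was found in. With equal lists, a region over the end of TFF2, chr21:42350875-42351648, was called in all 4 Lgk974 libraries at 24 h and all 3 at 48 h and in no DMSO library. With all peaks, the same region was also called in 3 of 4 and 2 of 4 DMSO libraries. With equal lists, chr21:34796588-34797465 inside RUNX1 was called in all 8 DMSO libraries and no Lgk974 library, but with all peaks in 3 of 4 and 2 of 3 Lgk974 libraries too. The region at the end of IFIT2, chr10:89309573-89310798, was called with equal lists in 4 of 4 Lgk974 libraries at 24 h, 1 of 3 at 48 h and no DMSO library. With all peaks it was called in 4 of 4 and 2 of 3 Lgk974 libraries and in all 8 DMSO libraries. The next 3 regions were found with all peaks. At the AXIN2 end, chr17:65561445-65562085 was called in no Lgk974 library at either time, and in 2 of 4 DMSO libraries at 24 h and 4 of 4 at 48 h. A region 2517 bp from CCND1, chr11:69638047-69638639, was called in 1 of 4 and 0 of 3 Lgk974 libraries and in all 8 DMSO libraries. Near CDKN1A, chr6:36671663-36672277 was called in 3 of 4 and 3 of 3 Lgk974 libraries and in no DMSO library.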

How the data were processed

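Chromatin accessibility was measured by ATAC-seq in 15 libraries, with 1 narrowPeak list per library on hg38. MACS2, Bowtie2, Trimmomatic, DiffBind, DESeq2, HOMER, ChIPseeker, Picard, bedtools and SAMtools are named in the submitters' processing notes, with versions and settings not given in the sources used here. Each list deposited by the authors gives a peak score, a fold ratio over background and −log10 p and q values. Only the −log10 q was used here, to rank the peaks of 1 list. The files hold no read counts, so depth and its precision are unknown.

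The 7 Lgk974 lists were merged into regions (overlap of at least 1 bp, chromosomes 1 to 22 and X), and a region was called in a library where 1 of its peaks overlapped it. Two-sided exact permutation tests compared the share of libraries between times, with Benjamini-Hochberg adjustment over all regions called in 1 to 6 libraries. For the difference between treatments, treatment labels were exchanged within each time. Genes came from RefSeq (GRCh38.p14). Named regions were, in each direction, the first 15 completely separated ones (those also separated with equal lists first, then by the percentile in the weakest library), up to 10 at gene ends, up to 3 genes per gene list, and a set of genes named in every case. Some items of these sets are not reported here. The members, gene lists and rules were chosen with earlier results of these data known. Equal lists for the difference between treatments and for the followed regions were added after seeing the data. Alternatives were the 53610 or 20000 most significant peaks, −log10 q of at least 5, peaks covering 50% of a region, windows of 250 bp on either side of summits, regions of all 15 libraries, gene ends within 3 kb, omission of libraries and a replicate block. Whether the replicate numbers pair the samples was not settled. Correlations of deviations between same-numbered libraries of the 2 times were 0.126, -0.0365 and 0.213 with all peaks. Between libraries of unlike number they ran from -0.266 to 0.159. With equal lists the same-numbered values were 0.0209, 0.0467 and 0.0972, and the others ran from -0.0893 to 0.0642. Region merging, calls and exact p-values were tested on simulated data. Python 3.11.15, NumPy 2.4.6, pandas 2.3.3, matplotlib 3.10.9 and bedtools 2.31.1 were used.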

Additional observations from a re-analysis of the deposited data

Results flagged for a closer look

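In 20 sets of 4 libraries examined for a single library far from the others, a gap larger than chance gives in about 1 of 20 sets was found 6 times. Replicate 3 of Lgk974 at 24 h accounted for 5 of them. It held 53610 peaks where the other 3 libraries held 95210 to 98930, covering 25.5 Mb where they covered 50.0 to 51.4 Mb. Of its peak summits, 21.7% lay at gene ends, against 14.6% to 15.2%. With equal lists its mean Jaccard index with the other 6 Lgk974 libraries was 0.713, against 0.764 to 0.766 for the others at 24 h. With all peaks it called 11.4% of the regions found only with Lgk974 at 48 h, against 59.1% to 66.9%. The other case was replicate 3 of DMSO at 24 h, which with equal lists called 24.2% of the regions found only with DMSO at 48 h, against 64.2% to 71.6% in the other DMSO libraries at 24 h. The 20 sets share libraries and are not independent, so the 6 gaps cannot be counted as separate events. Lgk974 at 48 h, with 3 libraries, was not examined, although its replicate 3 held 57708 peaks.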

How the results depend on the processing

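No region passed the adjusted exact permutation test under any setting run (smallest adjusted p between 0.769 and 1). With all 7 libraries, between 123 and 387 regions passed at an unadjusted p under 0.05. Without a library, or with a replicate block, none can. The counts of completely separated regions were the least stable values. Those found at 48 h and at 24 h only numbered 70 and 90 with 20000 peaks per library, 177 and 210 with equal lists, 105 and 18 with −log10 q of at least 5, 130 and 17 with 50% cover, 150 and 33 with summit windows and 140 and 20 with regions of all 15 libraries. Without replicate 3 of both times they numbered 4081 and 408, and 1954 and 1060 with equal lists as well. With replicates 1 to 3 and the replicate block, a pairing not settled by the correlations, they numbered 227 and 33. Replicates 1 and 3 at 24 h, but not replicate 2, correlated best with their own number at 48 h. Leaving out 1 library gave 146 to 4038 and 23 to 384.

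The within minus between Jaccard index turned positive with equal lists (0.0154), with 20000 peaks (0.0132), without replicate 3 of both times (0.0288) and with equal lists there (0.00847), and ran from -0.0365 to 0.0335 when 1 library was left out. The difference in covered sequence (48 h minus 24 h) was -0.413 Mb with equal lists and -0.403 Mb with 20000 peaks, and that in median width was 1.0 bp without replicate 3 and 30.5 bp with equal lists there. With 20000 peaks, summits at gene ends differed by 0.0274 and summits inside genes by -0.0324 percentage points. Summits between genes differed by -0.0204 points without replicate 3 and with equal lists. Leaving out 1 library gave differences of -6225 to 26338 peaks, -3.54 to 13.8 Mb, -34.8 to 5.25 bp, and -3.01 to 0.825, -0.0373 to 1.80 and -0.788 to 1.21 points at gene ends, inside and between genes.

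Of 38 named regions, 2 stayed completely separated with equal lists, 0 with 20000 peaks, 27 with −log10 q of at least 5, 26 with 50% cover, 36 with summit windows and 37 with regions of all 15 libraries. Among gene ends, the difference in the share of libraries calling LGR5 was 0.0833, WLS 0.417 and RUNX1 -0.25 with equal lists, IFIT1 -0.25 with 20000 peaks, RUNX1 -0.167 with −log10 q of at least 5 and -0.667 without replicate 3 and with equal lists, NOTUM -0.333 with ends within 3 kb, NKD1 -0.25 without replicate 2 at 48 h (-0.25 to 0.333 over the libraries left out) and WLS 0.25 without replicate 3 at 48 h (-0.333 to 0.25). Each alternative value is opposite in sign to the value with all peaks, and none passed an exact permutation test. The cause of these shifts was not tested. Unknown depth limits every count of absent peaks.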
